A study of Danio rerio with 6 samples.

Results

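The peroxiredoxins and the thioredoxin system were examined in livers dissected from larval zebrafish (*Danio rerio*) at 7 dpf (days post fertilization). The members were fixed by name: *prdx1* to *prdx6*, *txn*, *txn2*, *txnrd3* and *srxn1*. Of these 10 genes, 9 had a row among the 6502 rows of the count table that carry an Entrez gene ID. *prdx3* was not analysed here. The symbol *txn* was matched through the RefSeq synonyms to the gene now called *txnb* (Entrez 436734), and is called *txn* below. Each library came from a pool of 15 livers, with 3 pools per group. The cr*keap1a/b* pools came from embryos injected at the single-cell stage with Cas9 and guides against both zebrafish Keap1 paralogs. Such crispants are mosaic, so unedited cells may remain in the livers, and the share of edited cells in these pools is not given. The wild-type (WT) pools came from clutch siblings, per the study's methods, and no injection of a control guide is described for them. No other allele or agent is given in the labels for either group. Whether the replicates came from separate clutches is not stated, so p-values concern the spread between these pools only. The fits estimate that spread with information shared across genes.

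Peroxiredoxins remove hydrogen peroxide with an active-site cysteine. In most of them the oxidised cysteine forms a disulfide that thioredoxin reduces, and thioredoxin reductase, a selenoprotein, recharges thioredoxin with electrons from NADPH. When the cysteine is over-oxidised, sulfiredoxin repairs it with ATP. In mammals, the genes for PRDX1, cytosolic thioredoxin, its reductase and sulfiredoxin are among the classical targets of NRF2, the transcription factor that KEAP1 keeps at a low level. The comparison of cr*keap1a/b* with WT livers therefore asks how this enzyme chain is expressed when Keap1 is depleted.

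The libraries held between 9491003 and 15030262 counts in rows with a gene ID. The sample descriptions carry a letter, and replicate 3 of each group has the letter b where the other 4 libraries have the letter a. The meaning of the letter is not given. The replicate 3 libraries stood apart, with 47.6% of genes at 0 counts in cr*keap1a/b* and 53.2% in WT, against 2.83% to 13.1% in the libraries of letter a. The members are therefore also described within letter a, that is, over those 4 libraries alone. The targeted genes did not separate the groups: for *keap1a*, cr*keap1a/b* replicates 1 to 3 held 291, 307 and 0 counts and WT replicates 375, 0 and 379. For *keap1b* the cr*keap1a/b* libraries held 489, 309 and 0 counts and the WT libraries 314, 261 and 10. Transcript counts do not show whether a gene was edited. The paper assessed edits at the target sites of both genes by sequencing DNA of injected larvae. Hepatocyte markers, 14 of 15 listed, summed to 104302 to 177928 CPM (counts divided by the library total, TMM-scaled) in cr*keap1a/b* and 152359 to 223079 CPM in WT livers. Markers of some other cells moved with the group. Exocrine pancreas markers, 14 of 22 listed, summed to 8715 to 12424 CPM in cr*keap1a/b* and 26301 to 41674 CPM in WT, and skeletal muscle markers, 8 of 14, to 252 to 376 CPM against 410.0 to 2114 CPM. Biliary markers, 4 of 7, summed to 757 to 1066 CPM in cr*keap1a/b* and 1172 to 1659 CPM in WT. Erythrocyte markers, 8 of 16, summed to 677 to 2341 CPM in cr*keap1a/b* and 532 to 665 CPM in WT. Macrophage and leukocyte markers, 3 of 14, summed to 77.4 to 250 CPM against 3.09 to 49.9 CPM, without *mpeg1.1*, *lyz*, *mpx* or *ptprc*. The 3 were *marco*, *grna.1* and *ctss2.1*, a cathepsin gene. The paper reports higher expression of several cathepsins in whole larvae after Keap1 loss, and enrichment of a lysosomal gene signature in dissected livers. Some of these markers were at 0 in replicate 3. In cr*keap1a/b* and WT, respectively, they were 3 and 1 of the pancreas, 1 and 3 of the muscle and 2 and 1 of the biliary genes. They were 1 and 3 of the erythrocyte and 0 and 2 of the macrophage and leukocyte genes. Intestine markers, 6 of 9, overlapped, at 591 to 879 CPM in cr*keap1a/b* and 815 to 1729 CPM in WT. The summed endothelial and the summed lens and retina markers were 0 in both replicate 3 libraries, so overlap over 6 libraries was fixed. Within letter a, lens and retina markers, 6 of 11, summed to 156 and 229 CPM in cr*keap1a/b* and 43.4 and 53.2 CPM in WT. Endothelial markers, 3 of 10, overlapped there, at 39.2 and 32.0 CPM against 33.6 and 69.1 CPM. The part of these cell types in the results was not tested, and in such bulk samples fewer cells of a type and less RNA per cell cannot be told apart.

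*prdx1* and *txnrd3* were higher in cr*keap1a/b* livers, and none of the members was called lower. The test was limma-voom over 6386 genes with Benjamini-Hochberg adjustment and a threshold of 0.05 on the adjusted p-value. Of the 8 members that passed the filter on low counts, 2 were called higher, whereas 0.595% of all tested genes were called higher and 0.595% lower. edgeR called 1 member higher (*prdx1*), where it called 0.251% of all genes higher, and DESeq2 called 3 (*prdx1*, *txnrd3* and *txn*), where it called 1.86% higher. Neither tool called a member lower, where edgeR called 0.094% of all genes lower and DESeq2 0.81%. The DESeq2 shares, here and below, are of the 5431 genes to which it gave an adjusted p. An unadjusted limma-voom p under 0.05 was found in 4 of the 8 members, and in 486 of all 6386 tested genes. The 4 were *prdx1*, *txn*, *txn2* and *txnrd3*, each with a positive log2 fold change. That of *txn2* rested on a 0 in WT replicate 3 (below). Within letter a, *prdx1*, *txnrd3* and *prdx5* were called higher, 3 of 9 tested members, where 2.31% of all genes were called higher. With so few pools, the limma-voom p-values, over 6 libraries as well as within letter a, rest mainly on a spread shared across genes. They do not measure each gene's own spread between pools. In 4 members, *prdx1*, *txnrd3*, *prdx5* and *txn*, each of the 3 cr*keap1a/b* values exceeded each of the 3 WT values, an arrangement found in 8.39% of all tested genes. The opposite arrangement was found in 0 members and in 5% of all tested genes. The members were chosen with earlier results of these data known, so these counts are a description of the list. The 8 members had a median log2 fold change of 1.69, and all tested genes one of 0.36. That median of all genes was 0.57 with library totals as the only scaling, so the log2 fold changes of *prdx1* and *txnrd3* over 6 libraries are also given relative to the median.

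**Figure D1:**
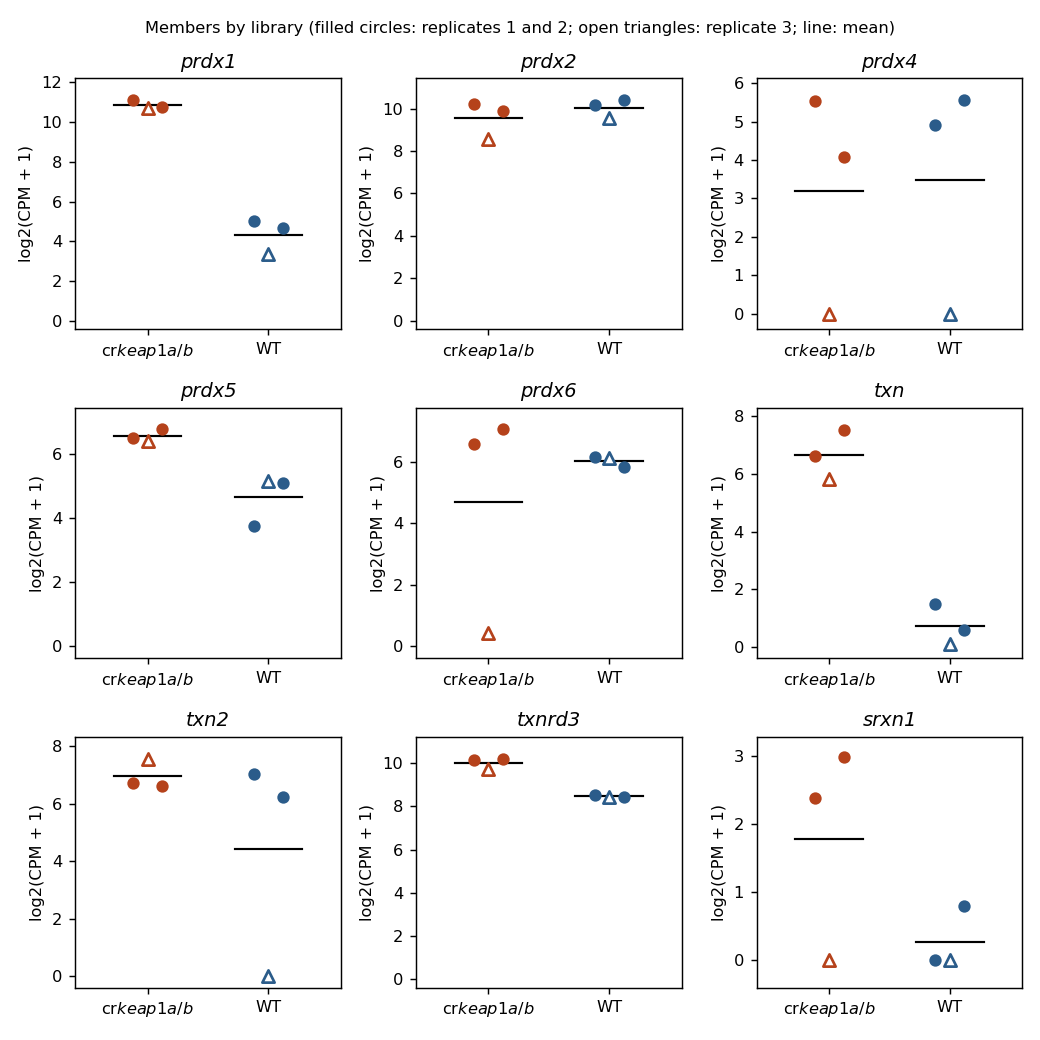
Level of each of the 9 measured members by library, as log2(CPM + 1) with CPM scaled by TMM factors (y axis), for 3 cr*keap1a/b* pools on the left of each panel and 3 WT pools on the right; open triangles are the replicate 3 libraries and lines are group means. The groups are apart for *prdx1*, *prdx5*, *txn* and *txnrd3*, while *prdx4*, *prdx6*, *txn2* and *srxn1* have a replicate 3 library at or near 0.

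Among the peroxiredoxins, *prdx1* (Entrez 541344), a cytosolic member in mammals, had the widest gap between the groups. It was counted 23962, 21784 and 24725 times in cr*keap1a/b* replicates 1 to 3, and 297, 199 and 159 times in the WT replicates. The lowest cr*keap1a/b* pool had many times the counts of the highest WT pool, and both replicate 3 libraries kept that order. The mean was 1842 ± 270.2 CPM in cr*keap1a/b* and 21.6 ± 11.2 CPM in WT livers (SD, n = 3 each), a ratio of 85.4. The spread relative to the mean was 14.7% in cr*keap1a/b* and 51.8% in WT. The fitted log2 fold change of 6.83 (SE 1.34) was 6.47 above the median of all genes and passed the test (limma-voom, adjusted p = 0.000623). edgeR gave 6.42 (quasi-likelihood, adjusted p = 2.45e-06), and limma-voom within letter a gave 6.13 (SE 0.54, adjusted p = 5.54e-27). Between the 2 libraries of letter b alone the log2 ratio was 7.47, a value with no test. The size held in each fit run, from 6.02 to 7.20, but the call did not. It was lost with RLE scaling (limma-voom adjusted p = 0.387), with the replicate number as a block, from the titles (0.184) or the descriptions (0.178), with the letter as a covariate (0.112), and when any of the 4 libraries of letter a was left out (0.468 without cr*keap1a/b* replicate 1, and 1 without cr*keap1a/b* replicate 2, WT replicate 1 or WT replicate 2). Over all genes, calls fell in these fits too, from 38 higher and 38 lower. RLE scaling gave 9 and 27, the blocks 1 and 2 (titles) and 2 and 3 (descriptions), and the covariate 7 and 10. Without cr*keap1a/b* replicate 1 there were 9 and 22, and without cr*keap1a/b* replicate 2 there were 0 and 1. Without WT replicate 1 there were 0 and 1, and without WT replicate 2 there were 0 and 4.

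*prdx2* (Entrez 791455), the close paralog of *prdx1* and in mammals a major protein of red cells, did not pass the test. It was counted 13517, 11947 and 5732 times in the cr*keap1a/b* pools and 11035, 10962 and 12843 times in the WT pools, and the groups overlapped. The mean was 848 ± 425 CPM in cr*keap1a/b* and 1082 ± 303 CPM in WT (SD, n = 3 each), for a log2 fold change of −0.43 (SE 0.32; limma-voom, adjusted p = 0.792). The lowest of the 6 values was that of cr*keap1a/b* replicate 3, and without it the log2 fold change was 0.10, where the median of all genes was 1.61. Within letter a it was −0.19 (SE 0.24). The summed erythrocyte markers (above) were 677 CPM in the lowest cr*keap1a/b* library and 665 CPM in the highest WT library, each of them replicate 3. Their highest value was 2341 CPM, in cr*keap1a/b* replicate 2. A link to *prdx2* was not tested. RefSeq lists *prdx1* among the older names of *prdx2*, so the rows were told apart by Entrez ID, and reads shared by the paralogs could have been split between them.

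The ratio of these paralogs within a library does not depend on how libraries are scaled. There were 1.77, 1.82 and 4.31 *prdx1* counts per *prdx2* count in the cr*keap1a/b* pools, against 0.0269, 0.0182 and 0.0124 in the WT pools. The mean difference of the log2 ratio was 7.05 (exact permutation test, two-sided: p = 0.1, the smallest value 3 pools a group can give). Ratios to *prdx2* were taken only for *prdx1*, *txnrd3* and *prdx5*, whose groups were already apart in CPM, so these p-values are not separate support. *prdx2* was lowest in cr*keap1a/b* replicate 3, at 381 CPM, which raises the ratios of that library. Of the counts of the 5 measured peroxiredoxins, *prdx1* made up 59.8%, 58.9% and 77.9% in cr*keap1a/b* livers and 2.40%, 1.62% and 1.07% in WT livers. *prdx2* made up 33.7%, 32.3% and 18.1% in cr*keap1a/b* livers and 89.0%, 89.3% and 86.8% in WT livers. These are shares of tags from the 3′ end of transcripts, not divided by transcript length. The peroxiredoxins together summed to 2882 ± 743 CPM in cr*keap1a/b* and 1220.4 ± 327 CPM in WT livers (SD, n = 3 each), and the groups did not overlap. Without *prdx1* the sum was 1039 ± 510.1 CPM in cr*keap1a/b* and 1199 ± 318 CPM in WT livers (SD, n = 3 each), and the groups overlapped.

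**Figure D2:**
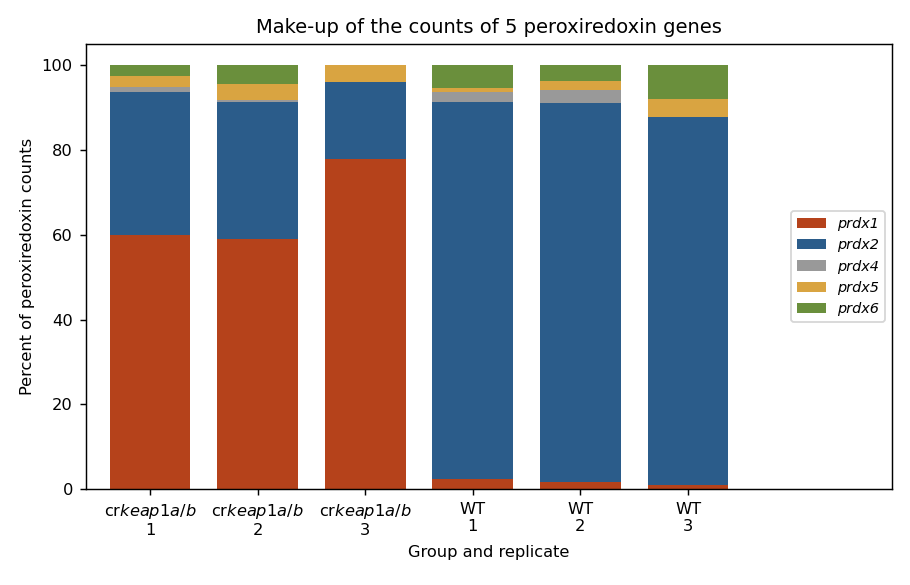
Percent of the summed counts of 5 peroxiredoxin genes (y axis) that came from each gene, by library (x axis, 3 cr*keap1a/b* pools and then 3 WT pools). *prdx1* takes 58.9% to 77.9% of the counts in cr*keap1a/b* pools and 1.07% to 2.40% in WT pools, where *prdx2* takes 86.8% to 89.3%.

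*prdx5* (Entrez 554105), which in mammals is found in mitochondria, peroxisomes and cytosol, was the other peroxiredoxin whose groups were apart. Its counts were 1015, 1373 and 1272 in the cr*keap1a/b* pools and 118, 273 and 602 in the WT pools. In CPM the pools stood at 91.1, 109 and 84.6 in cr*keap1a/b* and 12.3, 33.4 and 35.1 in WT. Over 6 libraries the log2 fold change of 1.83 (SE 1.27) did not pass the test (limma-voom, adjusted p = 0.770). Within letter a that of 2.38 (SE 0.66) passed (adjusted p = 0.0112). Relative to *prdx2* in the same library, *prdx5* had 0.0751, 0.115 and 0.222 counts per *prdx2* count in cr*keap1a/b* and 0.0107, 0.0249 and 0.0469 in WT livers (exact permutation test, two-sided: p = 0.1, the smallest possible).

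*prdx4* and *prdx6* could not be told apart between the groups. *prdx4* (Entrez 570477), the peroxiredoxin of the endoplasmic reticulum (ER) in mammals, was counted 510, 199 and 0 times in the cr*keap1a/b* pools and 278, 380 and 0 times in the WT pools. Its log2 fold change was 0.05 (SE 3.74; limma-voom, adjusted p = 0.9996) over 6 libraries and −0.45 (SE 0.64) within letter a. *prdx6* (Entrez 393778), which in mammals uses glutathione in place of thioredoxin and also acts as a phospholipase, was counted 1049, 1666 and 5 times in the cr*keap1a/b* pools and 672, 456 and 1190 times in the WT pools. Its log2 fold change over 6 libraries was −2.50 in limma-voom (SE 1.61, adjusted p = 0.742) and 0.22 in edgeR. Without cr*keap1a/b* replicate 3 it was 0.78 in limma-voom, where the median of all genes was 1.61. Within letter a both cr*keap1a/b* values exceeded both WT values, and the log2 fold change was 0.85 (SE 0.45, adjusted p = 0.442 by limma-voom). Of the 826 genes with at least 1000 counts in both other cr*keap1a/b* libraries, 27 (3.27%) had 5 counts or fewer in replicate 3, as *prdx6* did.

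Thioredoxin reductase was the second member called. *txnrd3* (Entrez 352924), which RefSeq also lists under the older name *txnrd1*, was counted 12782, 14654 and 12743 times in the cr*keap1a/b* pools and 3551, 2835 and 5839 times in the WT pools. In CPM the cr*keap1a/b* pools stood at 1147, 1165 and 848 and the WT pools at 372, 347 and 340.2. The WT spread was small, at 4.69% of the mean. The mean was 1053 ± 178 CPM in cr*keap1a/b* and 353 ± 16.5 CPM in WT (SD, n = 3 each), a ratio of 2.98. Its log2 fold change of 1.55 (SE 0.37) was 1.19 above the median of all genes and passed the test (limma-voom, adjusted p = 0.00983). It was 1.71 within letter a (SE 0.27, adjusted p = 5.61e-08), and the log2 ratio between the letter b libraries was 1.32. The size stayed between 1.52 and 1.76 in the other fits. The call was lost in edgeR (quasi-likelihood, adjusted p = 0.0995), in limma with a trend (0.0578), with RLE scaling (0.936), with the replicate number as a block, from the titles (0.167) or the descriptions (0.162), and when any library of letter a was left out (0.9999 without cr*keap1a/b* replicate 1, and 1 without each of the others). Over all genes, edgeR called 16 higher and 6 lower, and limma with a trend 27 and 22. The other fits lost calls over all genes as given for *prdx1*. There were 0.946, 1.23 and 2.22 *txnrd3* counts per *prdx2* count in cr*keap1a/b* and 0.322, 0.259 and 0.455 in WT livers (exact permutation test, two-sided: p = 0.1, the smallest possible).

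The thioredoxins differed from each other in their levels and in which libraries held few or no counts. *txn* (Entrez 436734), a gene for cytosolic thioredoxin, was counted 1082, 2334 and 835 times in the cr*keap1a/b* pools and 17, 4 and 1 times in the WT pools. No WT pool came near a cr*keap1a/b* pool, and WT replicates 2 and 3 were at about the floor of 3 counts per library. The mean was 113 ± 66.4 CPM in cr*keap1a/b* and 0.776 ± 0.895 CPM in WT (SD, n = 3 each). Its log2 fold change of 7.68 (SE 2.63) was above that of *prdx1* but was not called (limma-voom, adjusted p = 0.191, and edgeR quasi-likelihood, adjusted p = 0.0511). It was called by DESeq2 (adjusted p = 4.96e-07) and by limma-voom without cr*keap1a/b* replicate 3 (adjusted p = 0.0319). Within letter a the log2 fold change was 7.08 (SE 2.91; limma-voom, adjusted p = 0.193), and it lay between 6.61 and 8.67 in each of the other fits. The paralog *txna* (Entrez 336637) is not a member and was added after its values were seen. Its counts were 2875, 3667 and 2132 in the cr*keap1a/b* pools and 1449, 992 and 0 in the WT pools (limma-voom, adjusted p = 0.223). Within letter a the log2 fold change was 1.03 (SE 0.35, adjusted p = 0.0661). In WT livers the *txna* row thus held counts that the *txn* row almost lacked, except in replicate 3.

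*txn2* (Entrez 402938), the mitochondrial thioredoxin, was counted 1158, 1216 and 2838 times in the cr*keap1a/b* pools and 1236, 616 and 0 times in the WT pools. The groups overlapped, since in CPM the cr*keap1a/b* pools of letter a, at 104 and 96.7, were below WT replicate 1, at 129. The fitted log2 fold change of 5.37 (SE 2.37; limma-voom, adjusted p = 0.496) rested on the 0 in WT replicate 3. Without that library it was 0.32, where the median of all genes was −0.50, within letter a 0.02 (SE 0.41), and in edgeR 0.93. Of the 832 genes with at least 600 counts in both other WT libraries, 30 (3.61%) were at 0 in WT replicate 3.

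Sulfiredoxin had low counts, and outside the cr*keap1a/b* pools of letter a it was at or near the floor. *srxn1* (Entrez 100331561) was counted 47, 87 and 0 times in the cr*keap1a/b* pools and 0, 6 and 0 times in the WT pools, and did not pass the filter on low counts. The mean was 3.71 ± 3.49 CPM in cr*keap1a/b* and 0.245 ± 0.424 CPM in WT (SD, n = 3 each). The cr*keap1a/b* pools of letter a both exceeded each WT pool, and cr*keap1a/b* replicate 3 was at 0. Fitted without the filter, its log2 fold change was 3.24 (SE 3.57; limma-voom, adjusted p = 0.962), and within letter a 4.80 (SE 3.69, adjusted p = 0.593). Neither fit called it. Of the 4749 genes with at least 40 counts in both other cr*keap1a/b* libraries, 39.4% were at 0 in replicate 3, as *srxn1* was.

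**Figure D3:**
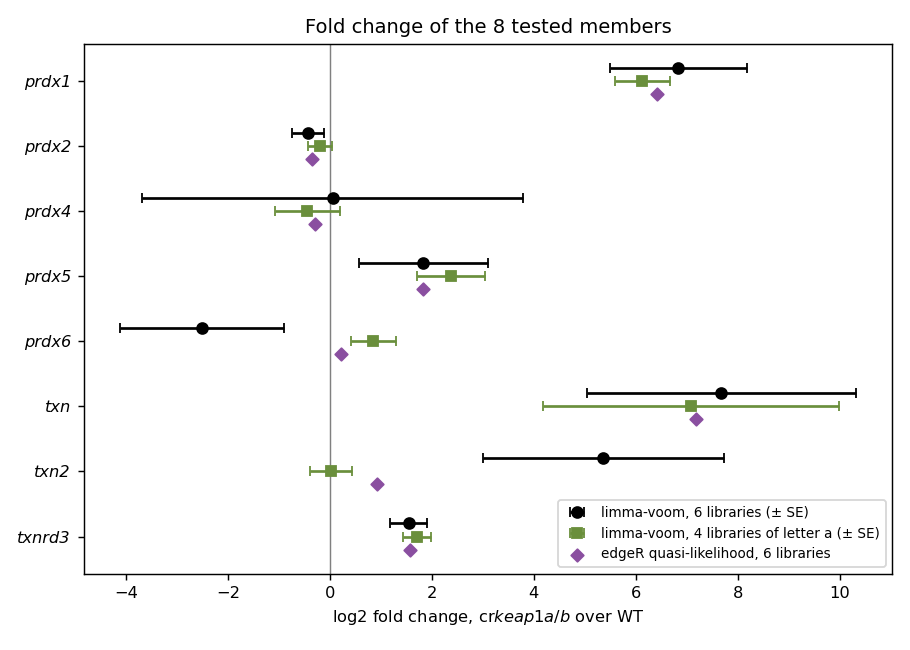
Log2 fold change of cr*keap1a/b* over WT (x axis) for the 8 tested members (y axis), from limma-voom on 6 libraries and on the 4 libraries of letter a, with bars of 1 SE, and from edgeR as points without bars. *prdx1*, *prdx5*, *txn* and *txnrd3* lie on the positive side at similar values in each fit, and *prdx2* on the negative side. *txn2* is also positive in each, but lies at 5.37 over 6 libraries and 0.02 in letter a by limma-voom. *prdx6* changes side, at −2.50 and 0.85.

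The other genes of the thioredoxin, glutaredoxin and ER folding pathways were described from a list of 69 genes, which includes *txna*. Of these, 42 had a row and 41 were tested. limma-voom called 0 in either direction, where it called 0.595% of all genes higher and 0.595% lower. An unadjusted limma-voom p under 0.05 was found in 5, and in 486 of all 6386 tested genes. edgeR called 0, where it called 0.251% of all genes higher and 0.094% lower. DESeq2 called 1 higher, where it called 1.86% higher and 0.81% lower. The log2 fold change was positive in 23 and negative in 18, and in 3643 and 2743 of all tested genes. The median was 0.76 for the list and 0.36 for all tested genes. Within letter a, 3 were called higher (*gsr*, *glrx* and *pdia6*) and 0 lower by limma-voom, where 2.31% of all genes were called higher and 2.15% lower.

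*gsr* (Entrez 553575), glutathione reductase, the counterpart of thioredoxin reductase in the glutathione system, was counted 1881, 2320 and 2515 times in the cr*keap1a/b* pools and 36, 220 and 814 times in the WT pools. The groups did not overlap, and the log2 fold change was 3.01 (SE 1.48; limma-voom, adjusted p = 0.629). Within letter a it was 4.35 and passed the test (SE 1.01, adjusted p = 0.000881). *glrx* (Entrez 449769), a glutaredoxin, which reduces disulfides with glutathione, was counted 2622, 2827 and 1222 times in the cr*keap1a/b* pools and 886, 296 and 16 times in the WT pools. In CPM the groups overlapped, since cr*keap1a/b* replicate 3, at 81.3, was below WT replicate 1, at 92.7. Its log2 fold change was 4.44 (SE 1.66; limma-voom, adjusted p = 0.280) over 6 libraries and 1.96 (SE 0.43, adjusted p = 0.000343) within letter a. *pdia6*, an ER disulfide isomerase, was counted 807, 1823 and 1048 times in the cr*keap1a/b* pools and 210, 60 and 1589 times in the WT pools, so that WT replicate 3 lay within the cr*keap1a/b* range. Its limma-voom adjusted p was 0.917 over 6 libraries and 0.0171 within letter a.

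Apart from *gsr*, the groups did not overlap in *txnl4a* and *arrdc3b*. In all, 3 of the 41 tested list genes had each cr*keap1a/b* value above each WT value, and 0 had the opposite. Of all tested genes, 8.39% and 5% did. *txnl4a*, which despite its thioredoxin fold is a component of the spliceosome, was counted 277, 239 and 1503 times in the cr*keap1a/b* pools and 2, 0 and 0 times in the WT pools, all 3 under the floor. Its limma-voom adjusted p was 0.0644 over 6 libraries and 0.315 within letter a, and it was the gene called by DESeq2 (adjusted p = 6.66e-05). *arrdc3b*, an arrestin-domain relative of the thioredoxin inhibitor Txnip, was counted 300, 233 and 1687 times in the cr*keap1a/b* pools and 86, 124 and 0 times in the WT pools (limma-voom, adjusted p = 0.741). Its log2 fold change was 4.89 over 6 libraries and 0.99 within letter a. *txnipa*, which encodes Txnip itself, was counted 1556, 694 and 1651 times in the cr*keap1a/b* pools and 680, 370 and 896 times in the WT pools. Its groups overlapped in CPM, with a log2 fold change of 0.77 (SE 0.91; limma-voom, adjusted p = 0.978) and of 0.60 within letter a. *txnrd2* and *txnipb* were not analysed here. Of the ER folding genes, 10 were tested, with 3 positive and 7 negative log2 fold changes and a median of −0.55 over 6 libraries, and with 6 positive and 4 negative and a median of 0.36 within letter a. Of these 10 genes, 4 were at 0 in cr*keap1a/b* replicate 3 only. The 4 negative within letter a were *pdia2*, *pdia5*, *qsox1* and *txndc5*, each also negative over 6 libraries. Of these, only *pdia2* is also a listed marker of the exocrine pancreas. Its counts were 334, 1077 and 0 in the cr*keap1a/b* pools and 1814, 683 and 3125 in the WT pools. In CPM its groups overlapped (limma-voom, adjusted p = 0.594). The summed markers of that tissue (above), *pdia2* among them, had their highest cr*keap1a/b* value under their lowest WT value. Whether the amount of that tissue bears on *pdia2* was not tested.

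In this list the fitted sign followed the zeros of the replicate 3 libraries. Such a 0 itself enters the fit over 6 libraries, so this describes the fit and is not a trait of the list. Of the 8 tested genes at 0 in cr*keap1a/b* replicate 3 only, 7 had a log2 fold change under 0, and the 8 had a median of −3.07 over 6 libraries and 0.19 within letter a. Of the 13 genes at 0 in WT replicate 3 only, 13 had one above 0, with a median of 4.04 over 6 libraries and 0.52 within letter a. The 13 genes above 0 in both had a median of 0.45 over 6 libraries and 0.60 within letter a. Over all tested genes, 873 of the 981 of the first kind were negative and 1284 of the 1329 of the second kind were positive. Of the members, *txn2* belongs to the second kind and *prdx4* was at 0 in both libraries, whereas *prdx1*, *txnrd3*, *prdx5* and *txn* were above 0 in each of the 6.

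**Figure D4:**
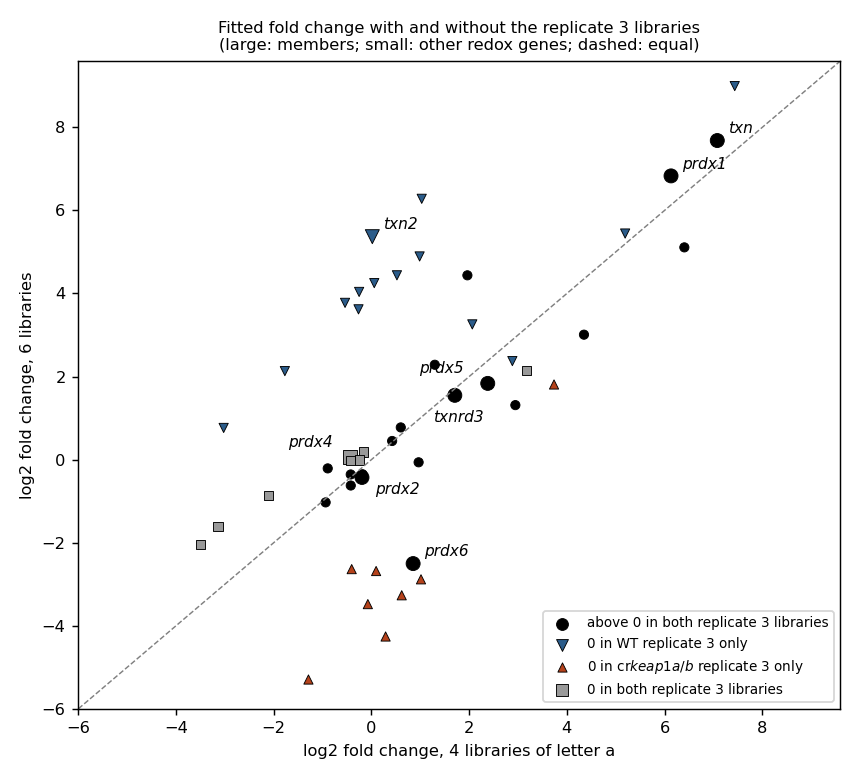
Log2 fold change of cr*keap1a/b* over WT fitted on 6 libraries (y axis) against that fitted on the 4 libraries of letter a (x axis), for 8 members (large symbols) and 41 other redox genes (small symbols). Genes at 0 in cr*keap1a/b* replicate 3 only lie below the line of equal values, genes at 0 in WT replicate 3 only, *txn2* among them, lie above it except for *secisbp2l* (2.37 over 6 libraries and 2.88 within letter a), and *prdx1*, *prdx5*, *txn* and *txnrd3* lie near it.

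The profile of *prdx1* over the 6 libraries was compared with those of 6385 other tested genes by the mean absolute difference of log2 CPM, after each gene's mean was subtracted. A prior count of 2 was added before the log2 was taken. The nearest were *glb1l* (0.32), *tg* (0.43), *gstp1.2* (0.47), *ascl1b* (0.50) and *ecsit* (0.50). Only *gstp1.2*, a pi-class glutathione transferase, was well above the floor in WT livers, with 157780, 141402 and 102376 counts in cr*keap1a/b* and 3631, 2024 and 1615 counts in WT. The other nearest genes had 100 to 750 counts in cr*keap1a/b* libraries and 0 to 2 counts in WT libraries. Among the members *txn* was nearest to *prdx1*, at 0.64, with 9 of the 6385 genes nearer. With 17, 4 and 1 counts of *txn* in WT livers, the prior count weighs on its distance, as on those of the genes with 0 to 2 counts. The distance was 2.31 for *prdx5* and 2.50 for *txnrd3*, with 802 and 1214 genes nearer. *prdx2* was at 3.52, with 4085 genes nearer.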

How the data were processed

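The table was deposited as whole-number counts per gene under Entrez IDs, not normalised. Per the study's methods and the submitters' processing notes, the authors made QuantSeq 3′ libraries and used cutadapt 1.16 for trimming, STAR 2.7.5b for alignment to GRCz11 and featureCounts 1.6.3 for counting. No molecular identifiers are mentioned, so floors (3 counts, 0.200 to 0.316 CPM) cover counting error only. Of 6637 rows, 135 name no gene (9.82% to 13.6% of counts) and were left out of totals and tests. Symbols came from a RefSeq gene table of GRCz12tu, which named 6426 rows, with no coordinates used. Where a listed symbol was not current, its synonym was used.

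The main test was limma-voom, as in the study (limma 3.58.1, edgeR 4.0.16, R 4.3.3), with filterByExpr, TMM factors, group as the only term and Benjamini-Hochberg adjustment over all tested genes at 0.05. CPM are TMM-scaled. edgeR's quasi-likelihood test, DESeq2 1.42.0 and other settings were alternatives, 19 fits in all. Members and lists were chosen with earlier results of these data known. Named genes were the members, list genes past the threshold or with separated groups, *txnrd2*, *gsr*, *glrx*, *txnipa* and *txnipb*, the targeted genes, and the 5 profiles nearest to *prdx1*. *txna*, *pdia2*, *pdia6* and other genes outside this rule were chosen after their values were seen.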

Additional observations from a re-analysis of the deposited data

How the results depend on the processing

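The size of the *prdx1* and *txnrd3* differences held in the 19 alternative fits, while the calls changed. *prdx1* was called in 11 of them and *txnrd3* in 10. *prdx1* lost its call with RLE factors (6.74), with the replicate block by title number (6.58) or description code (6.57) and with the description letter as a covariate (6.57). Leaving out 1 library gave 6.02 to 7.20 for *prdx1*. The members called higher numbered 1 in edgeR, with limma's trend option and with the letter as covariate, and 0 with RLE factors and both blocks, and ran from 0 to 3 when 1 library was left out (3 without cr*keap1a/b* replicate 3). Over all genes, against 38 higher and 38 lower, edgeR gave 16 and 6, DESeq2 101 higher, limma with a trend 22 lower, RLE factors 9 higher, genes above 0 in all 6 libraries 21 and 23, the block by title number 1 and 2, that by description code 2 and 3, the letter covariate 7 and 10, and letter a alone 149 and 139. An adjusted p under 0.1 gave 62 higher, and keeping rows without a gene ID, a setting chosen after seeing the data, 24 higher. Leaving out 1 library gave 0 to 125 higher and 1 to 71 lower. The wider list had 1 gene called higher in DESeq2 and at an adjusted p under 0.1, 3 in letter a, and 0 to 3 when 1 library was left out.

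The sign of *prdx4* (0.05) turned negative in edgeR (−0.30), DESeq2 (−0.37), limma with a trend (−0.30), with sample weights (−0.25), both blocks (−0.19 and −0.24), the letter covariate (−0.43) and letter a (−0.45), and ran from −3.74 to 3.15 when 1 library was left out. That of *prdx6* (−2.50) turned positive in edgeR (0.22), DESeq2 (0.10), with sample weights (0.61), both blocks (0.24 each), the covariate (0.20) and letter a (0.85), and ran from −3.78 to 0.78. *prdx2* ran from −0.75 to 0.10. The cause was not tested. Deviations of same-numbered pools had correlations of 0.0099 to 0.074 by title number and of 0.045 to 0.074 by the code in the descriptions. The labels do not explain the numbers, and the main fit did not take them to pair the samples. Pools with the same number could still share a clutch, which is not stated. The floor of 3 counts was 0.200 to 0.316 CPM, while 47.6% and 53.2% of genes were at 0 in replicate 3 of cr*keap1a/b* and WT.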
